A study of Mus musculus with 2 samples.

Results

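The regions described here are the broad peaks in a map of phosphorylated HLXB9 on the mouse genome, chosen by width alone as autosomal peaks of 2 kb or more. They numbered 1454 of the 83676 peaks in the list and of the 83393 on the 19 autosomes. The map came from MIN6-4N cells, which are mouse insulinoma cells, transfected with the plasmid pcDNA3.1-myc-his-HLXB9 so that they overexpressed HLXB9, and chromatin was taken 48 hours later. One library was made from chromatin precipitated with an antibody against phosphorylated HB9 (1 ChIP library) and one from chromatin with no antibody (1 input library), both from transfected cells and read at 36 bp. Cells without the plasmid and a control antibody were not analysed here, so the precipitated protein may come from the plasmid or from the cells' own gene.

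HLXB9 (HB9, now MNX1) belongs to the homeodomain transcription factors. It is needed for the formation of pancreatic β-cells and for the identity of motor neurons. A sequence-specific factor typically gives narrow ChIP-seq peaks over single sites. Wider peaks arise in general where bound sites lie side by side, where a factor or its chromatin partners spread along a region, or where the chromatin of a region gives many fragments. Which of these applies to a given peak is not told by its width.

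The authors' score of a peak is taken as their peak caller's p-value on a negative log10 scale, multiplied by 10, so that a score of 30, the lowest in the list, stands for a p-value of 1e-03 and one of 50 for 1e-05. Width, score and place come from the same calling on the same pair of libraries, and width was used to choose the peaks. All values below are therefore descriptions without a test, and with 1 library on each side there is no replicate error. Intervals are 95% intervals for counting error only, Wilson for shares and from binomial order statistics for medians. They treat peaks as independent, which neighbouring peaks are not. The number of sequenced tags is not known. Positions are on the mm9 build, and neither genes nor sequence are given for the peaks, since mm9 annotation and sequence were not used here.

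Broad peaks made up 1.74% of the autosomal peaks (95% Wilson interval 1.66% to 1.83%) and 5.93% of the length that peaks covered, 3.77 Mb of 63.6 Mb. Most were only slightly wider than the limit. Their median width was 2360 bp, with an interquartile range of 2150 to 2815 bp, and 90% of them were at most 3389 bp wide. The widest measured 8978 bp, and the narrower autosomal peaks had a median of 652 bp. None of the 283 peaks on the X and Y chromosomes reached 2 kb, and the widest of these was 1675 bp. The limit cuts through a continuous distribution. The 142 peaks less than 50 bp above it had a median score of 50.5, and the 161 up to 50 bp below it had one of 49.6. Their median gaps to the nearest peak were 5.38 kb and 5.36 kb.

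Chromosomes 1 and 7 together held 35.3% of the broad peaks and 12.95% of the narrower ones. Chromosome 1 had 293 broad peaks, or 4.47% of its peaks (3.99% to 4.99%), and chromosome 7 had 220, or 4.82% (4.23% to 5.48%). The next shares were 2.42% on chromosome 17 (90 peaks), 2.28% on chromosome 11 (123 peaks) and 2.23% on chromosome 8 (106 peaks), and their intervals lay below those of chromosomes 1 and 7. At the low end, chromosome 3 had 18 broad peaks (0.367%), chromosome 14 had 8 (0.244%) and chromosome 2 had 3 of 4448 (0.0674%, interval 0.0229% to 0.198%). Chromosome 18 had 0 of 1997, for which the interval reaches up to 0.192%. The share of broad peaks thus ranged from 0 on chromosome 18 to 4.82% on chromosome 7. Broad peaks lay in groups, so these intervals, which treat peaks as independent, are too narrow. The share on chromosomes 1 and 7 depends on the definition, being 56.9% of the 253 peaks of 3 kb or more and 21.3% of the 3463 regions of 2 kb or more that remained when peaks up to 1 kb apart were joined.

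**Figure D1:**
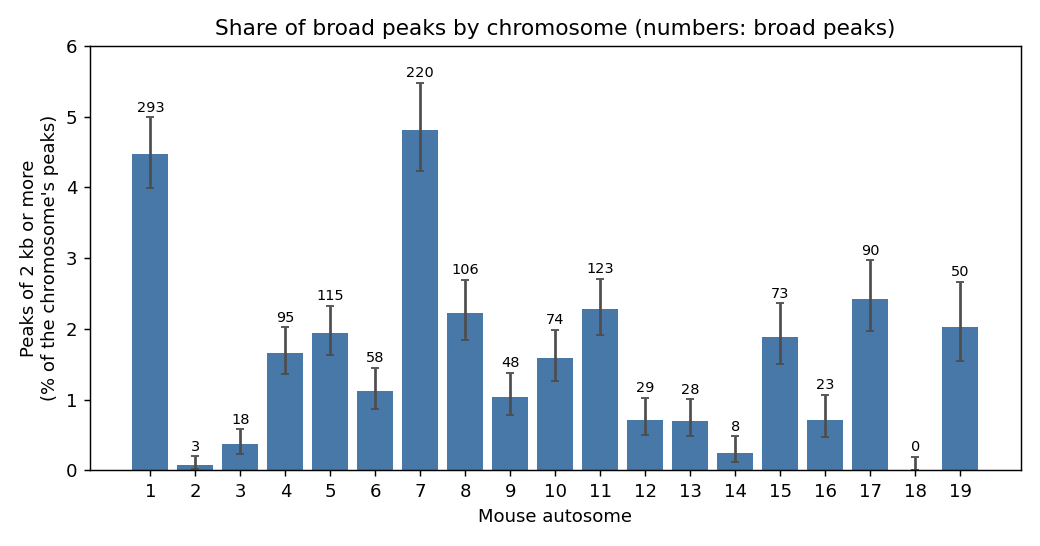
Bars give the percentage of each autosome's peaks that are 2 kb or wider, with 95% Wilson intervals for counting error, and the number above each bar is the count of such peaks. Chromosomes 7 (4.82%) and 1 (4.47%) stand above the other autosomes, while chromosomes 2 and 18 are close to or at 0.

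Both leading chromosomes held their broad peaks, but in different ways. On chromosome 1 they lay in 81 of 194 windows of 1 Mb (41.8%), with at most 15 in a window. On chromosome 7 they lay in 34 of 140 windows (24.3%), with up to 29 in one, and 89.5% of them lay before 58 Mb. In that part of chromosome 7, 197 of 1574 peaks were broad (12.5%), against 23 of 2992 beyond it (0.769%). The median gap from one broad peak to the next was 16.4 kb on chromosome 7 and 57.2 kb on chromosome 1. Chromosomes 4 and 15 also held most of theirs on one side, with 69.5% of the broad peaks of chromosome 4 beyond 130 Mb and 94.5% of those of chromosome 15 beyond 72 Mb. On chromosome 4, 66 of 1451 peaks beyond the division were broad (4.55%), against 29 of 4289 before it (0.676%). On chromosome 15, 69 of 1803 were broad beyond it (3.83%), against 4 of 2075 before it (0.193%). The dividing positions (that of chromosome 4 rounded) had been placed earlier on the widths of these same peaks, so the contrast between the sides follows in part from that choice.

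Among blocks of 10 Mb, the one from 20 to 30 Mb of chromosome 7 held most broad peaks, 68 of its 351 peaks (19.4%). It was followed by 50 to 60 Mb of the same chromosome with 60 of 462 (12.99%), 130 to 140 Mb of chromosome 1 with 56 of 417 (13.4%) and 120 to 130 Mb of chromosome 8 with 49 of 563 (8.70%). On chromosome 1 the block from 90 to 100 Mb held 44 of 302 (14.6%). Long stretches held no broad peak although narrower peaks were called throughout them. On chromosome 2, 133 Mb from 33834519 to 166472028 held 2766 narrower peaks and no broad one. A stretch of 54.3 Mb on chromosome 16 (35770881 to 90102577) held 1511 narrower peaks, and one of 46.3 Mb on chromosome 4 (59820155 to 106130294) held 1398. These blocks and stretches were singled out as the highest in their lists after the values were seen.

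Broad peaks were confined to fewer windows than narrower peaks. Of the 2404 autosomal windows of 1 Mb with any peak, 509 held at least 1 broad peak (21.2%), 85 held 5 or more and 22 held 10 or more. The 85 windows with 5 or more are 3.54% of the windows and contained 722 broad peaks, or 49.7% of all. To reach 50% of the broad peaks, the 87 fullest windows (3.62%) sufficed, whereas 50% of the narrower peaks took their own 786 fullest windows (32.7%). The 20 windows with most broad peaks held 19.8% of the broad peaks (17.8% to 21.9%) and 1.12% of the narrower ones. Part of this gap comes from small numbers, since 1454 peaks cannot occupy 2404 windows and the fullest windows of a sparse set are picked on their counts.

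**Figure D2:**
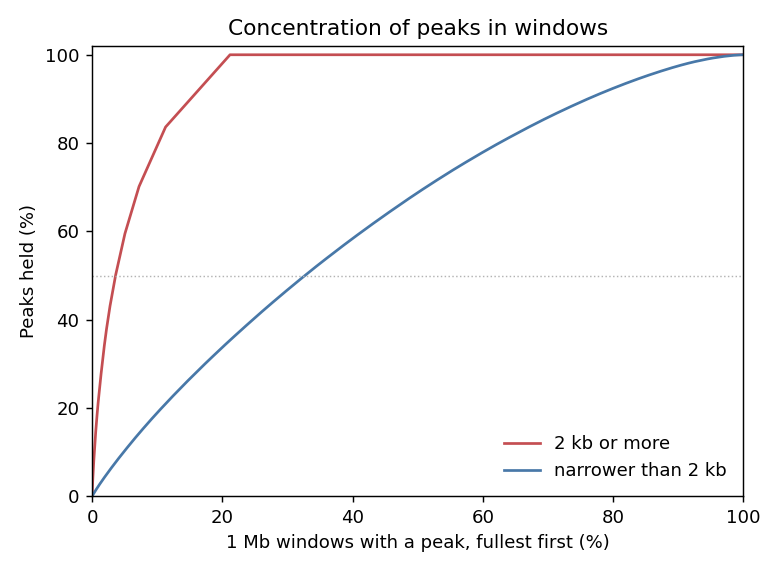
The horizontal axis ranks the 1 Mb windows from fullest to emptiest, separately for broad and for narrower peaks, and the vertical axis gives the percentage of peaks held so far. The curve of broad peaks reaches 50% at 3.62% of the windows and the curve of narrower peaks at 32.7%.

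The window with most broad peaks lay on chromosome 7 from 52000001 to 53000000. There 29 of 86 peaks were broad (33.7%), and these alone covered 8.92% of the window. Their scores ran from 31.3 to 168 with a median of 47.0, beside a median of 42.0 for the narrower peaks. Next came 2 adjoining windows on chromosome 10, from 80000001 to 81000000 with 22 broad peaks of 91 and from 79000001 to 80000000 with 18 of 122. Chromosome 7 held the following 2 windows as well, 29000001 to 30000000 with 17 of 62 and 19000001 to 20000000 with 16 of 64. In all 5 windows the narrower peaks were wide too, with medians of 1015 to 1247 bp.

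Windows with more narrower peaks had a larger share of broad ones over the autosomes together, but not on each of them. Without chromosomes 1 and 7, the share of broad peaks was 0.200% in windows with 20 to 29 narrower peaks (22 of 10973), 0.571% with 30 to 39, 1.16% with 40 to 49, 1.73% with 50 to 59 and 3.74% with 60 or more (415 of 11101). On chromosome 1 it was already 6.59% in windows with 20 to 29 narrower peaks (110 of 1668, interval 5.50% to 7.89%). It was 3.20% with 30 to 39 and 5.27% with 40 to 49, so that no steady increase was seen there. On chromosome 7 the share was 0.972% with 20 to 29 and 5.28% with 30 to 39. It was 6.95% with 40 to 49 and 6.80% with 50 to 59, where 8 of 10 windows held no broad peak. Other chromosomes had few broad peaks even in full windows. Chromosome 2 had 25 windows with 50 or more narrower peaks, and 22 of these held no broad peak. In them 3 of 1611 peaks were broad (0.186%). Chromosome 3 had 3 of 796 (0.377%) in its 14 such windows, chromosome 14 had 2 of 580 (0.345%) in 10, and chromosome 18 had 0 of 220 in 4. This compares with 95 of 3039 (3.13%) in the 48 windows of chromosome 11 and 68 of 1683 (4.04%) in the 27 of chromosome 15. Of the 5 fullest windows without any broad peak 3 were on chromosome 2, led by 32000001 to 33000000 with 90 peaks. Dense windows thus held few or no broad peaks on some chromosomes, and on chromosome 1 windows of moderate density held many. Whether density bears on width was not tested. A broad peak takes up room in which narrower ones could be called, which could lower the count of narrower peaks beside it. Whether it does was not tested.

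Narrower peaks were wider where broad ones lay. To compare peaks of like strength, those with a score from 30 to 40 were taken. Their median width was 542 bp (539 to 545) in windows without a broad peak, 695 bp (689 to 703) in windows with 1 to 4, and 876 bp (856 to 897) in windows with 5 or more. The same order held on chromosome 1 (625, 764 and 962 bp), on chromosome 7 (513, 752 and 967 bp) and on the other autosomes (539, 687 and 840 bp). Scores changed little, with medians over all narrower peaks of 38.9, 39.7 and 40.3 in these windows. Peaks from 1.5 to 2 kb made up 1.78%, 6.87% and 16.1% of the narrower peaks. Both the median width and the share just under 2 kb were thus higher where broad peaks lay. The windows were grouped by a count of wide peaks, so some of this order follows from the grouping.

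Broad peaks had higher scores than narrower peaks but included many weak ones. Their median score was 54.4 (interquartile range 40.9 to 81.6), against 39.1 (33.7 to 49.1) for the narrower autosomal peaks. Of the broad peaks, 837 (57.6%) scored 50 or more, where the share over all autosomal peaks was 24.1%, and 218 (15.0%) scored 100 or more, where that share was 1.65%. Nothing is read from these counts, since width and score rest on the same tags. At the other end, 339 broad peaks (23.3%) had a score from 30 to 40, only just past the caller's limit, beside 53.2% of the narrower peaks. A score of 200 was reached by 13 broad peaks (0.894%) and by 81 narrower ones (0.0989%).

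The higher scores were also seen within windows. In the 509 windows with a broad peak, all of which held at least 5 narrower ones, the broad median was above the narrower median in 446 (87.6%) and below it in 63. The median difference over windows, broad minus narrower, was 18.7 score units (16.8 to 23.2). In the 85 windows with 5 or more broad peaks it was 13.7 units (9.87 to 17.7), and the broad median was the higher in 80. With each window weighted by its number of broad peaks, 50.3% of the narrower peaks had a score from 30 to 40, beside the 23.3% of the broad ones. All 18 chromosomes with a broad peak had a higher median score in their broad than in their narrower peaks.

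**Figure D3:**
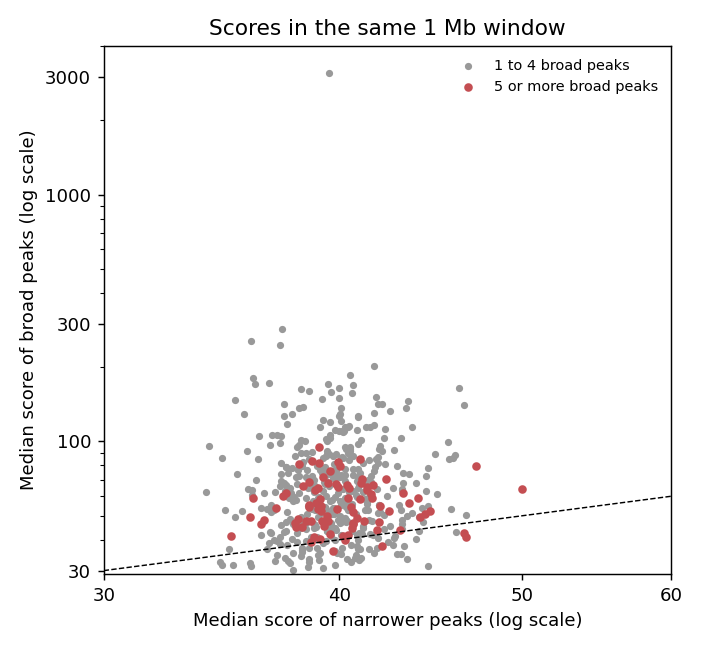
Each point is 1 of the 509 windows of 1 Mb with a broad peak, placed by the median score of its narrower peaks (horizontal, log scale) and of its broad peaks (vertical, log scale), and the dashed line marks equality. The broad median is above the line in 446 windows, and the single point above 3000 is the window on chromosome 17 whose 1 broad peak had a score of 3100.

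At equal width, scores spread widely. Up to 2 kb both the spread and the typical score were larger in wider bands, and beyond it the typical score levelled off. From 500 to 999 bp the 10th, 50th and 90th percentiles of the score were 31.6, 39.96 and 62.4. From 1.5 to 2 kb they were 33.3, 50.6 and 93.7, and in the 881 peaks from 2000 to 2499 bp they were 34.4, 53.8 and 110. Beyond that the median stayed between 52.9 and 56.2 in each band of 500 bp up to 4 kb, and their intervals overlapped. The 90th percentile went on from 115 (2500 to 2999 bp) to 122 (3000 to 3499 bp) and 127 (3500 to 3999 bp). This increase among broad peaks was not steady in other cuts. Without chromosomes 1 and 7 the distance from the 10th to the 90th percentile was 80.3, 87.3, 87.1 and 82.0 score units in the 4 bands from 2 to 4 kb. In bands of 250 bp it was 81.3 in the first band past 2 kb and 66.9 in the next, and then lay between 80.6 and 88.1 up to 3.5 kb. Over all autosomes, the 10th percentile remained close to the caller's limit in the bands of 500 bp from 2 to 4 kb, between 33.5 and 35.0. In the 69 peaks of 4 kb or more the 3 percentiles were 32.1, 57.6 and 142. Across the broad peaks, width and score had a Spearman correlation of 0.052 (n = 1454 peaks), beside 0.33 over the 81939 narrower ones. Both values share the tags of the same libraries, and the range of widths differs between the groups.

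From 2000 to 2499 bp, broad peaks of chromosomes 1 and 7 were weaker than those of the same width elsewhere, and in wider bands the order varied. In this first band the median score was 46.5 on chromosome 1 (41.8 to 50.2, 156 peaks) and 45.1 on chromosome 7 (42.6 to 48.7, 100 peaks). On the other autosomes together it was 58.8 (55.8 to 61.9, 625 peaks), and the intervals did not overlap. The highest medians of this band among chromosomes with at least 20 such peaks were 73.9 on chromosome 10 (50.2 to 86.7) and 72.4 on chromosome 15 (53.4 to 80.9). Chromosome 5, with 48.9 (44.1 to 56.1), was close to chromosomes 1 and 7. From 2500 to 2999 bp chromosome 1 no longer stood apart, at 57.3 (50.8 to 67.0), while chromosome 7 was at 48.9 (44.3 to 56.1) and the other autosomes at 58.7 (52.6 to 67.8), with overlapping intervals. From 3000 to 3499 bp chromosome 7 was at 62.8 (25 peaks), above the 60.4 of the other autosomes, and chromosome 1 at 41.4 (37 peaks). From 3500 to 3999 bp chromosome 1 was at 52.0 (21 peaks) and the other autosomes at 53.0. Weak broad peaks, from 30 to 40, made up 29.2% on chromosomes 1 and 7 and 20.1% elsewhere.

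**Figure D4:**
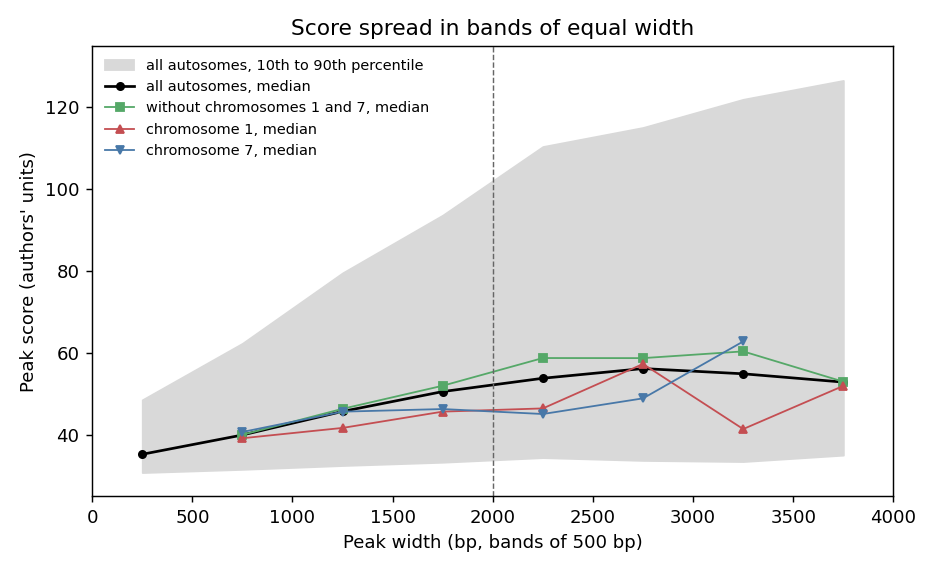
Peak score is drawn against width in bands of 500 bp, with the band's middle on the horizontal axis. The grey area spans the 10th to 90th percentile over all autosomes, lines are medians, bands with under 20 peaks are left out, and the dashed line marks 2 kb, to the right of which the black median stays between 52.9 and 56.2 and the upper edge of the grey area goes from 110 to 127.

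On the 3 chromosomes with the smallest shares above 0, broad peaks scored high. The 3 broad peaks of chromosome 2 all scored at least 100, with a median of 113. On chromosome 3 the 18 had a median of 93.4, and on chromosome 14 the 8 had one of 82.3. Chromosomes 12, 13 and 16, with shares of 0.696% to 0.715%, did not share this, with medians of 53.8, 54.1 and 54.6 beside 58.7 over all broad peaks outside chromosomes 1 and 7. Over the 18 autosomes with a broad peak, the share of broad peaks and their median score had a Spearman correlation of -0.51, and of -0.31 without chromosomes 1 and 7. Peaks from 1 to 1.5 kb, which are narrower than the limit, were also compared between chromosomes. Their median score was 61.7 on chromosome 18 (70 peaks), 55.6 on chromosome 2 (256 peaks) and 41.7 on chromosome 1 (1191 peaks). Over the 19 autosomes the share of broad peaks and this median had a Spearman correlation of -0.84. It includes chromosome 18, which the value of -0.51 leaves out, so the sets of chromosomes differ. The share of broad peaks is itself set by the width rule. The chromosomes share both libraries and 1 calling, so these correlations describe the chromosomes of 1 list and not single peaks. Over single narrower peaks, width and score had a positive Spearman correlation of 0.33.

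In nearness to other peaks, broad peaks differed little from the narrower peaks of the same windows. Another peak lay within 1 kb of 16.4% of the broad peaks (14.6% to 18.4%) and within 10 kb of 70.4% (68.0% to 72.6%), measured from edge to edge. Over all narrower autosomal peaks the shares were 10.9% and 57.9%. In the same windows, weighted by the number of broad peaks, they were 16.3% and 69.9%, inside the intervals of the broad peaks. Within 20 kb the shares were 90.1% (88.5% to 91.5%) and 88.4%, the latter just below the interval. The median gap was 5.42 kb for both. Within 100 bp the shares were 3.78% (2.92% to 4.89%) and 3.16%. The mean number of other peaks within 50 kb of the midpoint was 5.94 for broad peaks and 5.75 for narrower peaks of the same windows. Over the autosomes together, broad peaks thus lay in more crowded windows. Within those windows they were about as close to the next peak as the narrower peaks were. Chromosome 1 differed in crowding, since 110 of its 293 broad peaks lay in windows with 20 to 29 narrower peaks. The median gap from a broad peak of chromosome 1 to the nearest peak was 8.38 kb. Only 13 broad peaks over all autosomes had a peak within 1 kb on both sides.

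Peaks beside a broad peak were wider than those beside a narrower one, but not stronger. The nearest peak had a median width of 1118 bp when seen from a broad peak and 933 bp when seen from the narrower peaks of the same windows. Its median score was 40.9 and 40.8. It was itself broad for 14.4% of the broad and 10.4% of the narrower peaks, although a broad peak has one broad peak fewer to meet in its window.

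Within windows, pairs of broad peaks were more often close together than pairs of a broad and a narrower peak. The median gap from a broad peak to the next broad peak was 71.2 kb (64.0 to 80.2). Another broad peak lay within 100 kb of 57.5% of the broad peaks. For narrower peaks of the same windows, weighted by broad peak number, this share was 57.8%. Within 10 kb it was 14.9% for broad and 12.2% for narrower peaks. Pairs of peaks in one window were then compared, which allows for the number of each kind. In the 271 windows with at least 2 broad and 5 narrower peaks, 13.6% of the 3895 pairs of broad peaks had midpoints within 50 kb (12.5% to 14.7%). Of the pairs of a broad and a narrower peak 9.63% did, with windows weighted alike. Within 10 kb the shares were 2.41% (1.98% to 2.94%) and 1.66%, and within 100 kb 24.5% (23.2% to 25.9%) and 19.0%. Pairs share peaks, so the intervals are too narrow. Without chromosomes 1 and 7 the shares within 50 kb were 12.8% and 10.1%. Among peaks with a score of at least 50 they were 11.8% (10.0% to 13.9%) and 11.0%, so that the difference lay within counting error there.

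**Figure D5:**
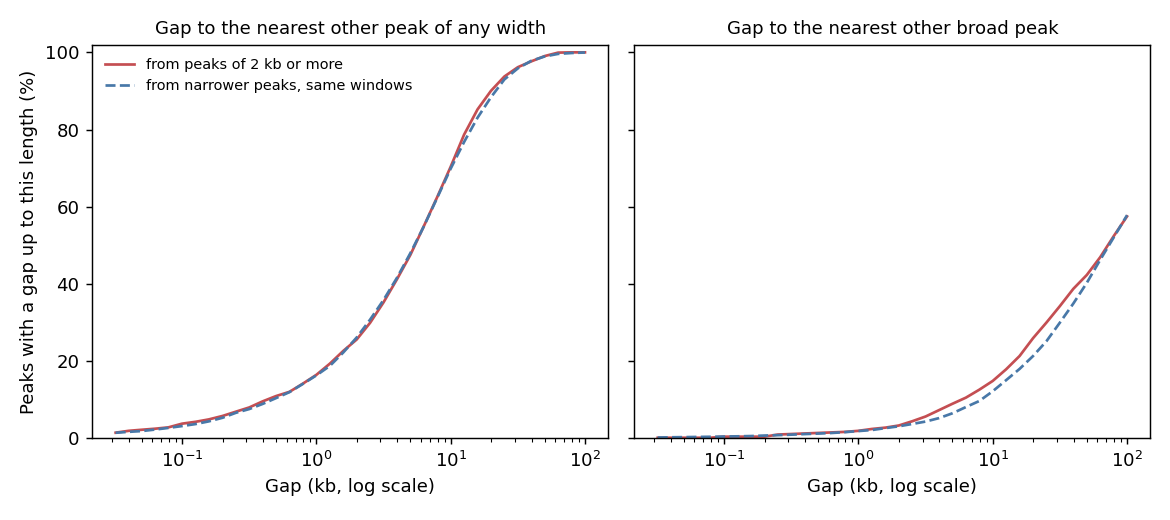
The left panel gives the percentage of peaks with another peak of any width within the edge-to-edge gap on the horizontal axis (log scale), and the right panel the same for the nearest other broad peak. Solid lines are broad peaks, dashed lines are narrower peaks of the same windows weighted by broad peak number. On the left the lines run together (70.4% and 69.9% at 10 kb), and on the right the broad line is above between about 5 and 50 kb and meets the other at 100 kb.

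Linking broad peaks with no more than 100 kb between neighbours left 618 alone (42.5% of them), 212 groups of 2 to 4 and 40 groups of 5 or more with 327 peaks (22.5%). The longest of these groups lay on chromosome 7 from 19489866 to 20177402. It held 24 broad and 38 narrower peaks, and the scores of the broad ones ran from 32.1 to 263 with a median of 58.2. Chromosome 1 had the next, from 94685012 to 95181179 with 13 broad and 11 narrower peaks and a median score of 42.7, and the third, from 36350224 to 36839446 with 14 broad and 19 narrower peaks. On chromosome 7 from 52017966 to 52399021, 19 broad peaks outnumbered the 13 narrower ones among them, a group picked after its values were seen. Strong and weak regions stood side by side in such groups.

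Single regions give examples of strong and weak broad peaks. They were picked at the extremes of width, score or isolation, so they do not measure how closely width and score were tied. The widest lay on chromosome 1 (136091417 to 136100394), spanned 8978 bp and scored 78.3, and its nearest peak was 16.5 kb away. Of the 10 widest, 2 were barely past the limit. One of 6930 bp on chromosome 7 (52957643 to 52964572) scored 31.5, less than the 66.0 of the 1133 bp peak only 193 bp from it. The other, of 6052 bp on chromosome 1 (134640660 to 134646711), scored 30.02 in a window where 13 of 35 peaks were broad. By contrast, scores of 104 and 123 were found for 6828 bp of chromosome 7 (19675728 to 19682555) and for 6595 bp of chromosome 1 (88334847 to 88341441). The latter was also among the 3 most isolated broad peaks, with no other peak within 58.1 kb. The most isolated lay on chromosome 7 (39050448 to 39052821), 64.1 kb from the nearest peak, and scored 33.0.

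The broad peak with the highest score, 3100, covered 6325 bp of chromosome 17 (39979599 to 39985923), and its surroundings were unlike those of most broad peaks. It was the only broad peak of a window with 17 peaks, the narrower peaks there had a median width of 478 bp, and the next broad peak was 3938 kb away. The second score was 337, for 5300 bp of chromosome 9 (20833131 to 20838430), a region separated by 8 bp from a 1381 bp peak with a score of 52.5. The third, 285, was found for 2566 bp of chromosome 8 (49074454 to 49077019) without another broad peak for 14071 kb. Regions of 2226 bp on chromosome 17 (56650124 to 56652349) and 3513 bp on chromosome 7 (19649596 to 19653108) scored 276 and 263, and each lay in a window with 8 or more broad peaks. Repeated sequence and copy number were not looked up in any of them. Whether 3100, the highest score in the list, is an upper limit of the score was not looked up either. Among the broadest weak regions, a 4611 bp one on chromosome 19 (5743208 to 5747818) scored 30.9 and a 4121 bp one on chromosome 13 (13017735 to 13021855) scored 31.1.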

How the data were processed

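The only file is 1 list of peaks, which the authors called with MACS (version written as 1.42) on mm9, per the submitters' processing notes. The score was deposited by the authors without a header and was taken as the p-value of the caller on a negative log10 scale, times 10. That it sets the ChIP against the input library is inferred from the labels. Aligner, filters and tag numbers are not stated in the labels or the list, so depth is unknown. Width is end minus start. Peaks were put into 1 Mb windows by midpoint. Gaps are edge to edge, and printed positions are 1-based. Narrower peaks of the same windows were weighted by broad peak number. The members, the lists and the rule for named regions (the 10 widest, 5 highest scores, 5 lowest scores at 4 kb or more, 3 most isolated, 5 fullest windows, longest group) were chosen with earlier results of these data known. Window, pair and gap steps were tested on simulated data. Gene, motif and sequence parts needed mm9 annotation and were not run. The scripts ran in Python 3.11.15 with pandas 2.3.3 and numpy 2.4.6, intervals came from scipy 1.17.1, and plots from matplotlib 3.10.9.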

Additional observations from a re-analysis of the deposited data

How the results depend on the processing

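Of 47 alternatives to the 8 results, 19 stayed within the interval of the reported value (or, for the count, within 1.5 times) and 28 moved. The number of broad peaks, 1454, was 4536 at a minimum width of 1500 bp, 253 at 3000 bp, 837 at a minimum score of 50 and 3463 with peaks within 1 kb joined. The share on chromosomes 1 and 7 was 26.5%, 56.9%, 29.5% and 21.3% in the same order, against 35.3%. The share in the 20 fullest windows, 19.8%, was 11.6% at 1500 bp, 43.1% at 3000 bp and 10.1% with joining. It was 14.1% in 0.5 Mb and 26.2% in 2 Mb windows, as smaller windows hold fewer peaks, and 22.9% without chromosome 1. Windows with the higher broad median, 87.6%, were 83.6% at 3000 bp and 83.6% with 0.5 Mb windows. A peak within 10 kb was found for 31.5% of broad peaks at a minimum score of 50 (34.0% of the narrower ones), when fewer peaks remain to be near. It was found for 74.2% without chromosome 1 and 74.4% without chromosomes 1 and 7 (72.9% and 73.1% of the narrower ones). The small difference between broad and narrower peaks in this share took either sign, with 68.0% and 70.2% at 3000 bp and 70.4% and 71.0% in 0.5 Mb windows. The other comparisons with narrower peaks kept their direction in each setting run. A joined region took the highest score of its peaks, so the score comparison with joining follows in part from that choice. The score comparison was not run at a minimum score of 50. Pairs of broad peaks within 50 kb, 13.6%, were 15.6% at 3000 bp, 11.8% at a minimum score of 50, 12.1% with joining, 23.9% in 0.5 Mb and 8.32% in 2 Mb windows. Pairs with a narrower peak were 9.29%, 11.0%, 9.45%, 18.4% and 5.15%. The width of weak narrower peaks beside 5 or more broad ones, 876 bp, was 751 bp at a minimum width of 1500 bp, 953 bp in 0.5 Mb windows, 814 bp in 2 Mb windows and 840 bp without chromosomes 1 and 7. Leaving out chromosomes 1 and 7 together and leaving out the top-scoring region were chosen after seeing the data. No paired analysis was possible because there is 1 library per group. The unknown tag number limits every statement on weak peaks.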
